A study of Mus musculus with 12 samples.

Results

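Proteoglycans are core proteins that carry glycosaminoglycan chains, and hyaluronan synthases make the glycosaminoglycan hyaluronan, which has no core protein. Here the expression of 10 genes of these families is described in cultured mouse liver cells after riociguat or its solvent. The genes were taken by symbol: the small leucine-rich proteoglycans Dcn, Bgn, Lum, Fmod, Prelp and Ogn, the large proteoglycans Vcan and Hspg2, and the hyaluronan synthases Has1 and Has2. All 10 were found among the 53452 genes of the table, and all 10 passed the filter on low counts. RNA was sequenced in 12 libraries of cells that the labels call HSCs, isolated from the liver of wild-type mice and taken here to be hepatic stellate cells, perisinusoidal cells known for storing retinoids. The sources used here give no strain, age, sex or dose. Riociguat stimulates soluble guanylate cyclase, which makes cyclic GMP. The 4 groups of 3 libraries were DMSO for 12 h, and riociguat for 6 h, 12 h and 24 h.

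Every culture, DMSO included, was kept for 12 h before a medium change and collected 24 h after that change. DMSO and the 12 h riociguat exposure both began 12 h after the change, the 6 h exposure began 18 h after it, and the 24 h exposure began with it. Riociguat 12 h and DMSO 12 h are therefore matched in time. In the others, the compound and the time at which it was added cannot be told apart. Whether replicates are separate mice or cell preparations is not in the labels, so the p-values rest on a spread between samples that could be purely technical.

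Small leucine-rich proteoglycans bind collagen fibrils and set their diameter and spacing, and some also bind growth factors such as TGF-beta. Versican, the product of Vcan, carries chondroitin sulfate and binds hyaluronan in the loose matrix of wounds, while perlecan, the product of Hspg2, carries heparan sulfate in basement membranes and around sinusoids. In liver, activated stellate cells and portal fibroblasts are known sources of decorin, biglycan, lumican, versican and hyaluronan, and sinusoidal endothelial cells clear hyaluronan from the blood.

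Library totals ran from 12953096 to 27358893 counts, and mitochondrial genes took 2.61% to 4.75% of them. DMSO replicate 1 stood farthest from its group: its counts differed from those of replicates 2 and 3 with a chi-square per degree of freedom of 12.3 and 16.0, against 4.08 between the latter. Its mitochondrial share was 4.51%, against 2.99% and 2.61% in replicates 2 and 3. The part of mitochondrial genes in that distance was not tested. All 16 genes of a stellate marker list were detected well enough to be tested and summed to 2864 ± 34.6 CPM in DMSO (SD, n = 3), where CPM stands for counts per 1000000 after scaling by library. Other liver cell types were represented, their marker sums in DMSO being 2204 ± 68.3 CPM for endothelial cells, 1307 ± 36.3 CPM for hepatocytes, 727 ± 14.97 CPM for mesothelium, 686 ± 27.4 CPM for cholangiocytes, 613 ± 44.3 CPM for portal fibroblasts, 79.1 ± 6.06 CPM for macrophages and 4.02 ± 0.60 CPM for lymphocytes. The cholangiocyte list includes Spp1, which activated stellate cells also express. In such bulk samples, fewer cells of a type and less RNA per cell cannot be told apart.

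Biglycan and decorin were the leading transcripts of the set. Per kilobase of exon, Bgn was at 249 ± 6.71 CPM per kb in DMSO and Dcn at 114 ± 3.24 CPM per kb (SD, n = 3), which is 50.9% and 23.3% of the sum over the 10 genes. Hspg2 followed with 68.4 ± 1.24 CPM per kb. Prelp (26.5 ± 1.47), Lum (16.6 ± 2.76), Vcan (5.80 ± 0.17) and Ogn (4.81 ± 0.78 CPM per kb) lay below it. Has2 (1.71 ± 0.18), Fmod (1.25 ± 0.08) and Has1 (0.96 ± 0.11 CPM per kb) were the lowest, with 50 to 172, 61 to 117 and 53 to 126 counts in a library. The order was the same in all 4 groups except that Lum stood above Prelp after 12 and 24 h of riociguat. The length used was that of all annotated exons of a gene together, not of the transcripts expressed. Levels and shares between genes therefore depend on the annotation.

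**Figure D1:**
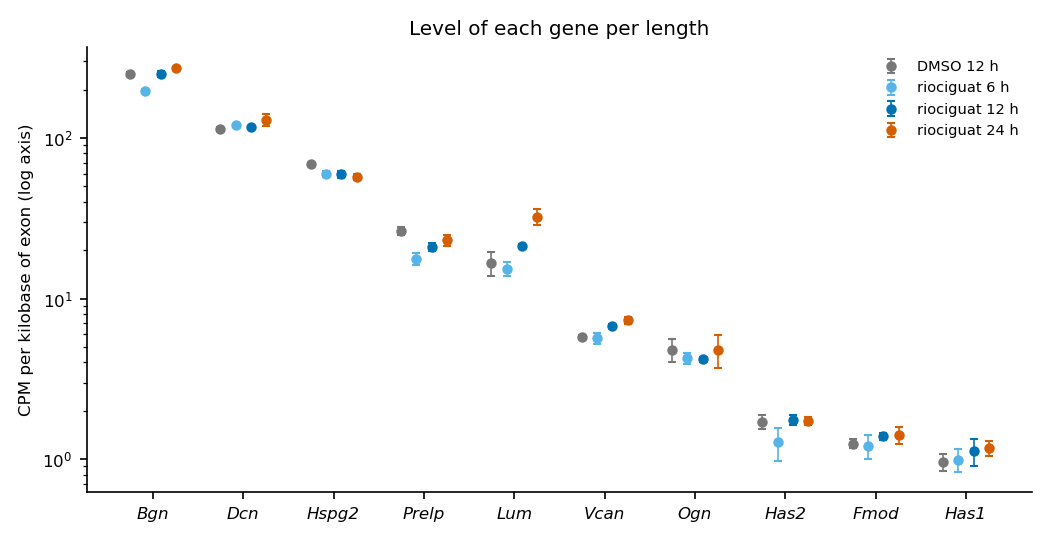
Level of each gene per kilobase of exon (y, log axis, CPM per kb; points are group means of 3 libraries, bars are SD) for the 4 groups, ordered by the DMSO level. Bgn, at 249 CPM per kb in DMSO, stands at the top and Has1, at 0.96, at the bottom; Lum passes Prelp after 12 and 24 h of riociguat.

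In the comparison matched in time, lumican and versican transcripts rose and Prelp and perlecan transcripts fell, all by less than 0.40 on the log2 scale. That is 2 risen and 2 fallen of 10 genes at an adjusted p under 0.05 (edgeR's quasi-likelihood test with Benjamini-Hochberg adjustment over 16036 genes), where 5.66% of all genes passed, 2.18% up and 3.48% down. After 6 h of riociguat 3 of the 10 fell (Bgn, Prelp and Hspg2) and none rose, where 9.72% of all genes passed, 4.48% up and 5.24% down. After 24 h 3 rose (Lum, Vcan and Dcn) and Hspg2 fell, where 13.4% of all genes passed, 5.94% up and 7.41% down. Between exposures, 3 of the 10 were higher at 12 h than at 6 h (Bgn, Lum and Vcan), where 6.09% of all genes passed, 2.57% up and 3.52% down. Lum alone was higher at 24 h than at 12 h, where 3.08% passed, 1.37% up and 1.71% down. At 24 h 4 were higher than at 6 h (Bgn, Lum, Vcan and Prelp), where 15.3% passed, 7.16% up and 8.13% down. The 3 comparisons share the DMSO libraries, so their values are not independent. The median log2 fold change over the 10 genes was -0.15 at 6 h, 0.03 at 12 h and 0.14 at 24 h, beside medians of -0.00, 0.00 and -0.01 over all genes. Fmod, Ogn, Has1 and Has2 passed in none of the 6 comparisons. At 12 h the count of 4 went down to 1 without DMSO replicate 3 or without riociguat 12 h replicate 2, and to 2 without DMSO replicate 2 or without riociguat 12 h replicate 3.

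**Figure D2:**
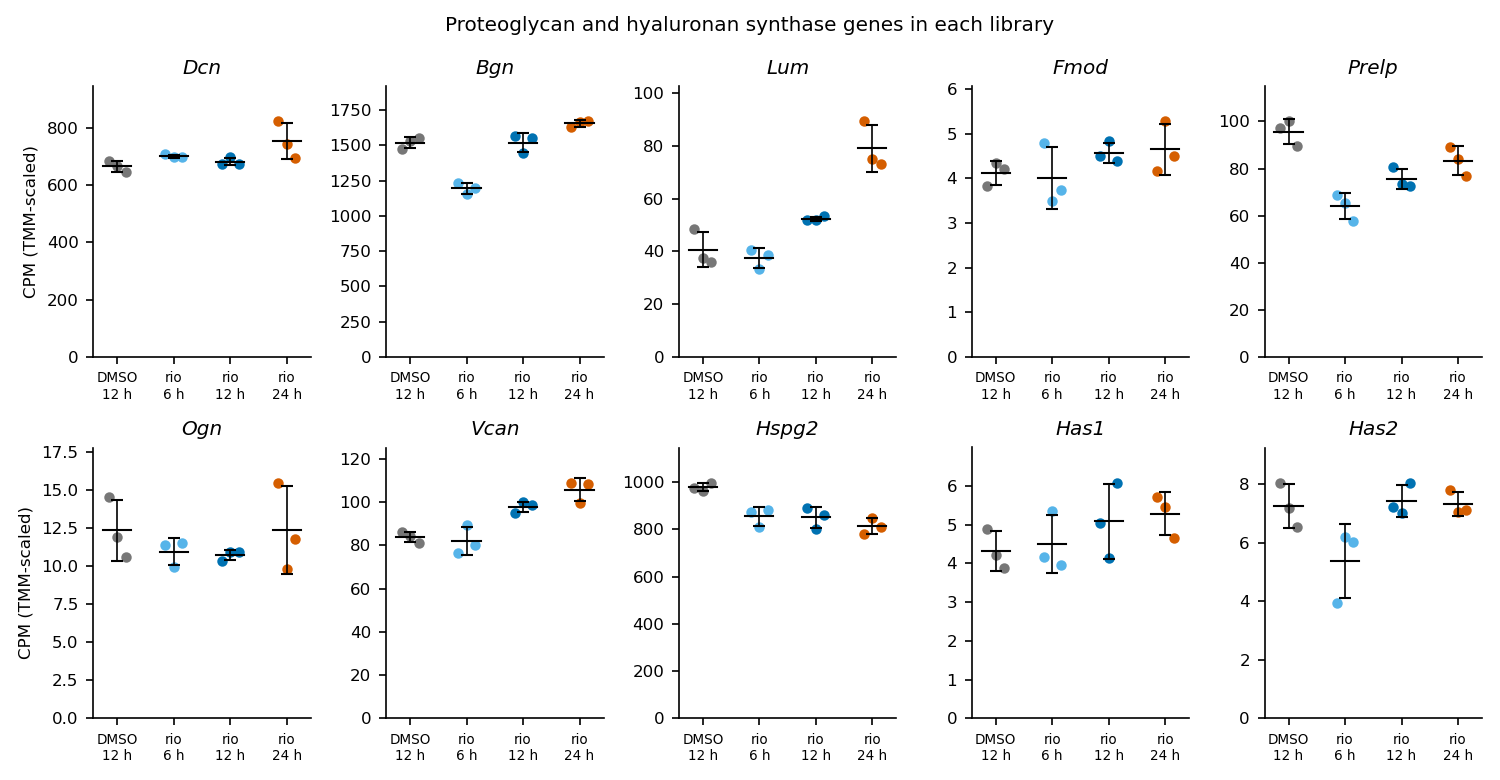
CPM of each of the 10 genes (y, from 0, scaled by library) in every library, by group (x); points are libraries, the long bar is the mean of 3 and the error bar its SD. Bgn and Prelp are lowest after 6 h of riociguat, Lum and Vcan are highest after 24 h, and Hspg2 is lower in all 9 riociguat libraries than in the 3 DMSO libraries.

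**Figure D3:**
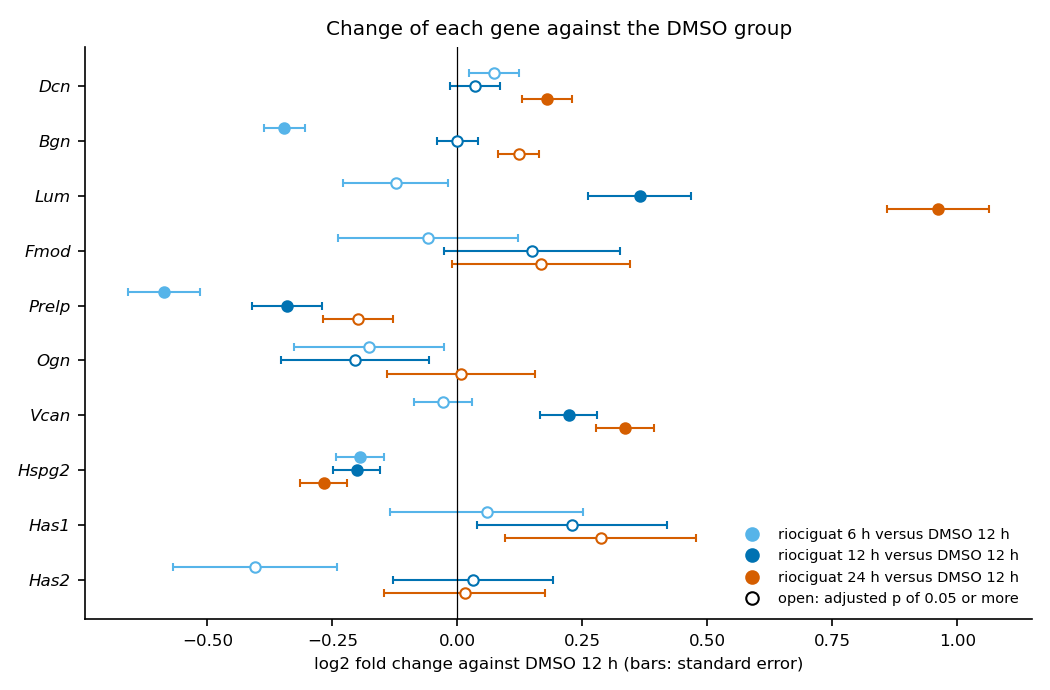
Log2 fold change of each gene against DMSO 12 h (x) after 6, 12 and 24 h of riociguat; points are fitted values, bars are their standard errors, and filled points have an adjusted p under 0.05. Lum reaches 0.96 at 24 h, Prelp -0.59 at 6 h, and the 3 values of Hspg2 are all below 0.

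The 250 bases upstream of the start of transcription are shown for the called genes for which RefSeq windows were at hand (GRCm38.p6), and for Has1. Windows matched 7 of the 10 genes; Dcn, Lum and Has2 had no entry. Bases inside the GENCODE gene were left off, so that 216 to 250 bases are printed, 5′ to 3′ on the strand of the gene. Capitals mark matches on either strand to 7 motifs. The TEAD core was searched as GGAATG, the core of the xenobiotic response element as GCGTG, and the core of the antioxidant response element as TGACNNNGC. The AP-1 site was searched as TGANTCA, the cyclic AMP response element as TGACGTCA, the SP1 motif in its common form as GGGCGG, and the TATA box of promoters as TATAAA. Bgn, Prelp and Hspg2 fell together at 6 h, Vcan rose at 12 and 24 h, and Has1 passed in no comparison.
Bgn, chrX:73483351-73483600, plus strand: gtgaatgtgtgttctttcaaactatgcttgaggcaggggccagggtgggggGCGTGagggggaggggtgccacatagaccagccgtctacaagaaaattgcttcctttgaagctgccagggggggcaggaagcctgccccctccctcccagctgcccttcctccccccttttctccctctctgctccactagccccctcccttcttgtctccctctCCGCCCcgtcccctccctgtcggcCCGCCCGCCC
Prelp, chr1:133921415-133921651, minus strand: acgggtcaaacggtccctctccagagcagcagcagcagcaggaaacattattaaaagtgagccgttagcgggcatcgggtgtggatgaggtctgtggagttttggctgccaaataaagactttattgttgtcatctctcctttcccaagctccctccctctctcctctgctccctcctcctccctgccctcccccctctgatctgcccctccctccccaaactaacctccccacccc
Hspg2, chr4:137468553-137468768, plus strand: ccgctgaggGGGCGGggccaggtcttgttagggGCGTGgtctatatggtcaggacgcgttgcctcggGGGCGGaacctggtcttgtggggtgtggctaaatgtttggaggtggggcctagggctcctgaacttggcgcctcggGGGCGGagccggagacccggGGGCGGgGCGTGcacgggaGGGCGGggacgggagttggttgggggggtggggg
Vcan, chr13:89742513-89742762, minus strand: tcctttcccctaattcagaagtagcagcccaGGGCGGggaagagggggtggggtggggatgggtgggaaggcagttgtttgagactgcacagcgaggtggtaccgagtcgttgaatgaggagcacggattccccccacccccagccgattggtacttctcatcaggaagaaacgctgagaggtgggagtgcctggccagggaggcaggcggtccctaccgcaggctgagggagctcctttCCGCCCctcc
Has1, chr17:17855206-17855438, minus strand: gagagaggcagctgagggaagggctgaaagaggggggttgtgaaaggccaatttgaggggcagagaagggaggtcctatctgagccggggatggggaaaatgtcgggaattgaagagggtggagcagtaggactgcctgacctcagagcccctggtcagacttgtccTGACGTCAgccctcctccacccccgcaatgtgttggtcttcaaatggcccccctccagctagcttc

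No motif stood in all 3 windows of the genes that fell together at 6 h. The SP1 motif stood in the 250-base windows of Bgn, Vcan and Hspg2, and in 32.7% of all 32851 windows of that length. The SP1 matches next to the Bgn start overlap each other. The xenobiotic response element core was found in Bgn and Hspg2 and in 28.2% of all windows. The cyclic AMP response element was found in Has1, 83 bases before its RefSeq start, and in 1.55% of all windows. That start lies inside the GENCODE gene, so the printed run of Has1 ends before it. The TEAD core and the TATA box each stood in Ogn alone among the 7 genes, against 12.6% and 12.4% of all windows. The AP-1 motif (6.75% of all windows) and the antioxidant response element core (10.2%) stood in none of the 7, and Prelp and Fmod held none of the 7 motifs. The window of Hspg2 was rich in G and C (a higher share than in 90.8% of all windows), followed by Bgn (81.6%) and Vcan (77.5%), while that of Ogn was poor (a higher share than in 15.9%).

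Among the class I small leucine-rich proteoglycans, Bgn was lowest at 6 h and Dcn highest at 24 h. Bgn (ENSMUSG00000031375, chromosome X, 73483602 to 73495933, plus strand, GRCm38) encodes biglycan, which also acts as a ligand of innate immune receptors when it is released from the matrix. Its CPM was 1475, 1534 and 1553 in DMSO, 1232, 1157 and 1201 after 6 h, 1566, 1447 and 1550 after 12 h, and 1628, 1669 and 1671 after 24 h. All 6 h libraries lay below, and all 24 h libraries above, every other library. Bgn fell by 0.35 ± 0.04 on the log2 scale at 6 h (SE, n = 3 per group; adjusted p = 2.57e-05, and at most 0.000355 when any library of the pair of groups was left out). At 12 h the log2 fold change was -0.00 ± 0.04 (95% interval -0.09 to 0.09). At 24 h it was 0.12 ± 0.04 and did not pass (adjusted p = 0.0569); it passed with RLE factors (adjusted p = 0.0399), with DESeq2 (adjusted p = 0.00525), without the low-count filter (adjusted p = 0.0255) and when the 6 libraries compared were fitted alone (adjusted p = 0.0479). Between exposures, Bgn was higher at 12 h than at 6 h by 0.35 ± 0.04 (adjusted p = 3.64e-05) and at 24 h than at 6 h by 0.47 ± 0.04 (adjusted p = 4.53e-07), whereas 24 h and 12 h did not differ beyond the threshold (0.12 ± 0.04, adjusted p = 0.138; adjusted p = 0.0202 with DESeq2).

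Dcn (ENSMUSG00000019929, chromosome 10, 97479609 to 97518143, plus strand) encodes decorin, which binds type I collagen and sequesters TGF-beta. Its CPM was 686, 667 and 648 in DMSO, 709, 699 and 699 after 6 h, 676, 699 and 675 after 12 h, and 824, 745 and 697 after 24 h. The 24 h libraries lay above the DMSO libraries but overlapped those of 6 h and 12 h. Dcn rose by 0.18 ± 0.05 on the log2 scale at 24 h (SE, n = 3 per group; adjusted p = 0.0226). That call was lost without DMSO replicate 2 or 3, without riociguat 24 h replicate 1 (adjusted p up to 0.0859) and when the 6 libraries compared were fitted alone (adjusted p = 0.0623). At 6 h and 12 h the values were 0.07 ± 0.05 and 0.04 ± 0.05 (adjusted p = 0.413 and 0.802). Dcn did not pass at 24 h against 12 h (0.15 ± 0.05, adjusted p = 0.153) or against 6 h (0.11 ± 0.05, adjusted p = 0.183). On omission of a library these adjusted p went as low as 0.0328 and 0.0290. From 6 h to 12 h the difference was -0.04 ± 0.05 (adjusted p = 0.760).

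The class II genes moved apart. Lum (ENSMUSG00000036446, chromosome 10, 97565128 to 97572703, plus strand) encodes lumican, a keratan sulfate proteoglycan that binds collagen fibrils. Its CPM was 48.4, 37.6 and 36.0 in DMSO, 40.4, 33.3 and 38.6 after 6 h, 51.8, 51.9 and 53.3 after 12 h, and 89.4, 74.9 and 73.1 after 24 h. DMSO and 6 h overlapped, the 12 h libraries lay above both, and the 24 h libraries above all others. Lum rose by 0.36 ± 0.10 on the log2 scale at 12 h (adjusted p = 0.0461) and by 0.96 ± 0.10 at 24 h (SE, n = 3 per group; adjusted p = 4.38e-06). The 12 h call was lost when any 1 library of either group was left out, except DMSO replicate 1, with adjusted p up to 0.217. Without DMSO replicate 1, the highest of its group for Lum, the 12 h value was 0.51 (adjusted p = 0.00146). At 24 h the adjusted p was at most 8.45e-05 over the same kind of omission. Lum was also higher at 12 h than at 6 h by 0.49 ± 0.10 (adjusted p = 0.00734), at 24 h than at 12 h by 0.60 ± 0.10 (adjusted p = 0.00178) and at 24 h than at 6 h by 1.08 ± 0.10 (adjusted p = 1.08e-06).

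Prelp (ENSMUSG00000041577, chromosome 1, 133910304 to 133921414, minus strand) encodes prolargin, which binds collagen and heparan sulfate and is thought to anchor basement membranes to connective tissue. Its CPM was 97.1, 100.1 and 89.8 in DMSO, 68.7, 65.4 and 57.9 after 6 h, 80.7, 73.5 and 72.6 after 12 h, and 89.0, 84.2 and 76.9 after 24 h. Every riociguat library lay below every DMSO library, and the 6 h libraries lay below all others. Prelp fell by 0.59 ± 0.07 on the log2 scale at 6 h (adjusted p = 3.42e-05) and by 0.34 ± 0.07 at 12 h (SE, n = 3 per group; adjusted p = 0.00576), and both calls held whichever library of the groups compared was left out (adjusted p at most 0.000451 and 0.0480). At 24 h the log2 fold change was -0.20 ± 0.07 and did not pass (adjusted p = 0.0719; adjusted p = 0.0204 with the replicate number as a block and 0.0344 without the low-count filter). Prelp was higher at 24 h than at 6 h by 0.39 ± 0.07 (adjusted p = 0.00105), and by 0.25 ± 0.07 at 12 h than at 6 h, which did not pass (adjusted p = 0.0517; adjusted p = 0.0132 with the block, 0.0227 with DESeq2, 0.00331 without the filter and 0.0398 in a fit of the 6 libraries).

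Fmod (ENSMUSG00000041559, chromosome 1, 134037254 to 134048277, plus strand), which encodes the collagen-binding fibromodulin, was scarce. Its CPM ran from 3.83 to 4.34 in DMSO, 3.49 to 4.80 after 6 h, 4.40 to 4.83 after 12 h and 4.17 to 5.28 after 24 h. The log2 fold changes against DMSO were -0.06 ± 0.18, 0.15 ± 0.18 and 0.17 ± 0.18 at 6, 12 and 24 h (SE), with 95% intervals that ran from -0.44 to 0.54 in all. Ogn (ENSMUSG00000021390, chromosome 13, 49608046 to 49624501, plus strand), the class III gene, encodes osteoglycin, also called mimecan. Its CPM was 14.5, 11.9 and 10.6 in DMSO, 11.4, 9.91 and 11.5 after 6 h, 10.3, 10.9 and 10.9 after 12 h, and 15.5, 9.79 and 11.8 after 24 h. All groups overlapped in Ogn, with log2 fold changes of -0.18 ± 0.15, -0.20 ± 0.15 and 0.01 ± 0.15 against DMSO (adjusted p of 0.533 or more). Riociguat 24 h replicate 1 was the highest library of its group for Dcn, Lum, Prelp, Ogn, Vcan, Has1 and Has2, and the lowest for Bgn, Hspg2 and Fmod. In the same library the stellate, mesothelial, cholangiocyte and macrophage marker sums were the highest of the group, at 3336 against 3262 and 3191 CPM for stellate and 724 against 614 and 613 CPM for mesothelial markers. The portal fibroblast and endothelial sums were the lowest, at 534 against 575 and 571 CPM and at 1955 against 2000.1 and 2038 CPM. Their part was not tested.

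Of the large proteoglycans, Vcan was higher and Hspg2 lower after 12 and 24 h of riociguat. Vcan (ENSMUSG00000021614, chromosome 13, 89655312 to 89742509, minus strand) had a CPM of 86.0, 84.4 and 81.1 in DMSO, 76.7, 89.2 and 80.1 after 6 h, 95.03, 99.9 and 98.5 after 12 h, and 109, 99.7 and 109 after 24 h. The 6 h libraries spanned those of DMSO, and all 12 h and 24 h libraries lay above both groups while overlapping each other. Vcan rose by 0.22 ± 0.06 on the log2 scale at 12 h (adjusted p = 0.0280) and by 0.34 ± 0.06 at 24 h (SE, n = 3 per group; adjusted p = 0.000662). The 12 h call was lost with the replicate number as a block (adjusted p = 0.0503) and when replicate 2 or 3 of either group was left out (adjusted p up to 0.119), while the 24 h call held whichever library was left out (adjusted p at most 0.00448). Vcan was higher at 12 h than at 6 h by 0.25 ± 0.06 (adjusted p = 0.0125), a call lost without riociguat 6 h replicate 1 or 3 or riociguat 12 h replicate 2 (adjusted p up to 0.0732), and at 24 h than at 6 h by 0.36 ± 0.06 (adjusted p = 0.000258). The antisense gene Gm4117 overlaps Vcan and held 40 to 128 counts a library. The sources used here do not state how strand was handled, so reads of this pair may not be told apart. The table gives no counts for the separate splice forms of versican.

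Hspg2 (ENSMUSG00000028763, chromosome 4, 137468769 to 137570630, plus strand) had a CPM of 977, 962 and 997 in DMSO, 874, 811 and 881 after 6 h, 889, 801 and 863 after 12 h, and 780, 848 and 811 after 24 h. Every riociguat library lay below every DMSO library, and the 3 riociguat groups overlapped each other. Hspg2 fell by 0.19 ± 0.05 on the log2 scale at 6 h (adjusted p = 0.0138), by 0.20 ± 0.05 at 12 h (adjusted p = 0.0146) and by 0.27 ± 0.05 at 24 h (SE, n = 3 per group; adjusted p = 0.000884). The 6 h and 12 h calls were lost without DMSO replicate 3 (adjusted p = 0.0643 and 0.0929) and without replicate 2 of the riociguat group (adjusted p = 0.0793 and 0.136), and the 24 h call held whichever library was left out (adjusted p at most 0.00961). Between exposures the differences were -0.01 ± 0.05, -0.07 ± 0.05 and -0.07 ± 0.05 (adjusted p of 0.355 or more). Endothelial cells also make perlecan, and the summed endothelial markers were 2365 ± 64.6 CPM at 6 h, 2105 ± 70.2 CPM at 12 h and 1998 ± 41.5 CPM at 24 h (SD, n = 3), above DMSO in the first of these and below it in the last. Of the 15 endothelial genes 1 rose and 1 fell at 12 h, where 5.66% of all genes passed. At 6 h 4 rose and 1 fell, where 9.72% of all genes passed. At 24 h 3 of these endothelial genes rose and 6 fell, where 13.4% of all genes passed. Their part in the fall of Hspg2 was not tested.

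Both hyaluronan synthase genes were near the floor of the set and passed no test. Has2 (ENSMUSG00000022367, chromosome 15, 56665627 to 56694539, minus strand), the main synthase of many mesenchymal cells, had a CPM of 8.04, 7.20 and 6.54 in DMSO, 3.93, 6.19 and 6.04 after 6 h, 7.21, 7.02 and 8.05 after 12 h, and 7.79, 7.06 and 7.12 after 24 h. The 6 h libraries lay below all others, and replicate 1, which had 50 counts and the smallest library total, was the lowest. The log2 fold change at 6 h was -0.40 ± 0.16 (SE; 95% interval -0.75 to -0.06) with a raw p of 0.0246 and an adjusted p of 0.141. It was -0.25 without that replicate. At 12 h and 24 h the values were 0.03 ± 0.16 and 0.01 ± 0.16, with 95% intervals of -0.31 to 0.37 and -0.32 to 0.35. Has1 (ENSMUSG00000003665, chromosome 17, 17843323 to 17855205, minus strand) had a CPM of 4.88, 4.21 and 3.87 in DMSO, 4.17, 5.35 and 3.97 after 6 h, 5.03, 4.13 and 6.08 after 12 h, and 5.71, 5.46 and 4.65 after 24 h. All groups overlapped, with log2 fold changes of 0.06 ± 0.19, 0.23 ± 0.19 and 0.29 ± 0.19 (adjusted p of 0.371 or more). At 12 h and 24 h the intervals of both synthase genes include the log2 fold changes of Vcan (0.22 and 0.34), so changes of that size are not excluded. The antisense gene Has2os overlaps Has2 and had at most 7 counts in a library.

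The counts of the pathway lists that follow stand beside 5.66% of all genes called at 12 h (2.18% up and 3.48% down). The shares were 9.72% at 6 h (4.48% up and 5.24% down) and 13.4% at 24 h (5.94% up and 7.41% down). The lists were chosen with earlier results of these data known, and no test of a list was run. A count is therefore no result about its list, whether near these shares or far from them. In a list of 23 genes of hyaluronan metabolism, all tested, 4 rose and 2 fell at 12 h, 4 rose and 1 fell at 6 h, and 4 rose and 6 fell at 24 h, with medians of -0.02, -0.04 and -0.02 on the log2 scale. Ugdh, which makes the UDP-glucuronate that hyaluronan and other glycosaminoglycans are built from, went from 317, 310 and 318 CPM in DMSO to 388, 419 and 408 CPM at 12 h, with no overlap. It rose by 0.43 ± 0.04, 0.36 ± 0.04 and 0.40 ± 0.04 on the log2 scale at 6, 12 and 24 h (adjusted p = 4.92e-06, 3.41e-05 and 7.22e-06). Cemip, a hyaluronan-degrading protein, went from 30.7 ± 1.27 CPM to 40.8 ± 1.91, 41.4 ± 1.25 and 47.7 ± 3.50 CPM (SD, n = 3) and rose at all 3 times, by 0.64 ± 0.07 at 24 h. Layn, which encodes the hyaluronan receptor layilin, rose by 0.40 ± 0.04, 0.28 ± 0.04 and 0.46 ± 0.04. Cd44, the main hyaluronan receptor of many cells, fell by 0.44 ± 0.06, 0.29 ± 0.06 and 0.34 ± 0.06, from 244 ± 6.51 CPM in DMSO to 180 ± 7.96, 199 ± 18.6 and 192 ± 13.3 CPM.

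Among the genes of the list that fell at 24 h, Itih1, Itih2, Itih3 and Itih4 are known as liver parenchymal genes of serum proteins. The products of Itih1, Itih2 and Itih3 bind hyaluronan. These 4 genes were named after their values were seen, except Itih4. Itih4 fell by 0.75 ± 0.10, and Itih1, Itih2 and Itih3 fell by 1.10 ± 0.18, 0.54 ± 0.16 and 0.92 ± 0.18. In the same group 10 of 14 hepatocyte markers fell and none rose, where 7.41% of all genes fell and 5.94% rose. The sum of these markers went from 1307 ± 36.3 to 740 ± 124.4 CPM (SD, n = 3). Whether this bears on the Itih genes was not tested. Cemip2, another hyaluronan-degrading protein, rose by 0.18 ± 0.05 at 24 h (adjusted p = 0.0378). Has3 was at 1.19 ± 0.12 CPM in DMSO and passed in no comparison with it, and neither did the hyaluronidase genes Hyal1 and Hyal2 or Tnfaip6, which encodes a hyaluronan-binding protein (adjusted p of 0.183 or more).

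**Figure D4:**
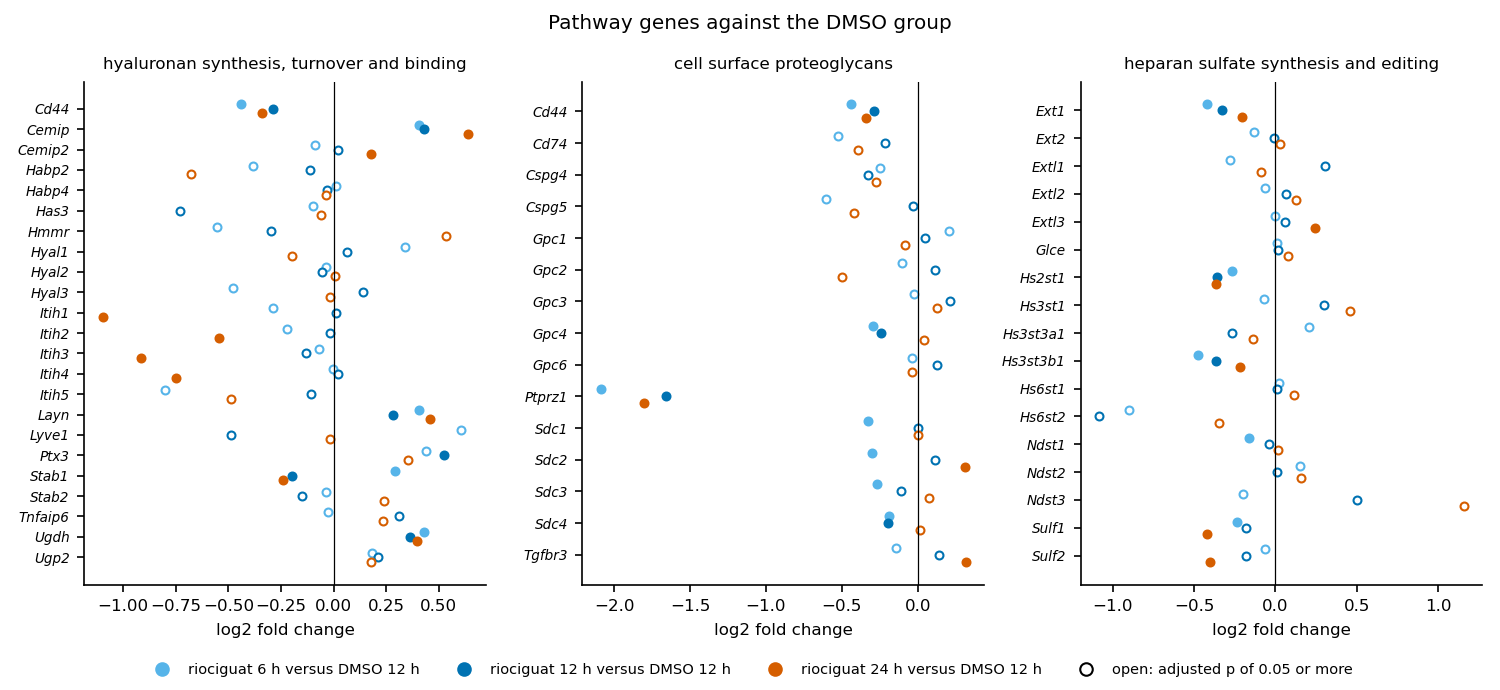
Log2 fold change against DMSO 12 h (x) after 6, 12 and 24 h of riociguat for the tested genes of 3 lists: hyaluronan metabolism, cell surface proteoglycans, and heparan sulfate synthesis and editing. Filled points have an adjusted p under 0.05. Ugdh, Cemip and Layn lie above 0 and Cd44 below 0 at all 3 times, and Ext1, Hs2st1 and Hs3st3b1 lie below 0 at all 3.

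Of 15 tested cell surface genes 4 fell at 12 h, 7 fell at 6 h, and 2 rose and 2 fell at 24 h, with medians of -0.03, -0.27 and -0.04 on the log2 scale. Sdc1 and Sdc3, which encode syndecans, fell by 0.33 ± 0.07 and 0.27 ± 0.05 at 6 h, and Gpc4, a glypican gene, fell by 0.29 ± 0.06. Tgfbr3, which encodes the TGF-beta co-receptor betaglycan, rose by 0.31 ± 0.05 at 24 h. Of 17 tested genes of heparan sulfate synthesis and editing 3 fell at 12 h, 5 fell at 6 h, and 5 fell and 1 rose at 24 h, with medians of -0.01, -0.13 and 0.02 in the order 12, 6 and 24 h. Ext1, a polymerase of the chain, fell by 0.42 ± 0.05, 0.33 ± 0.05 and 0.20 ± 0.05 at 6, 12 and 24 h. The sulfotransferase genes Hs2st1 and Hs3st3b1 fell at all 3 times, by 0.36 ± 0.06 and 0.37 ± 0.07 at 12 h. Sulf1 and Sulf2, which remove sulfate from the finished chain, fell by 0.42 ± 0.07 and 0.40 ± 0.06 at 24 h.

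Of 25 tested genes that build chondroitin or dermatan sulfate, the chains of versican, biglycan and decorin, 1 fell at 12 h, 2 rose and 4 fell at 6 h, and 2 rose and 2 fell at 24 h. The gene that fell at 12 h was Chst11, a chondroitin 4-sulfotransferase, with 121, 122 and 123 CPM in DMSO and 79.3, 80.1 and 81.8 CPM after 12 h, a fall of 0.60 ± 0.05 on the log2 scale (adjusted p = 7.99e-07). It fell by 0.39 ± 0.05 at 6 h and by 0.30 ± 0.05 at 24 h. In 10 tested genes of keratan sulfate, the chain of lumican and fibromodulin, 2 fell at 12 h, 1 at 6 h and 3 at 24 h, St3gal1 among them at each time. Of 19 tested genes of proteoglycan cleavage and chain degradation 1 rose and 1 fell at 12 h, 2 fell at 6 h, and 2 rose and 3 fell at 24 h. Adamts9, a protease that cleaves versican, fell by 0.91 ± 0.05 at 6 h (adjusted p = 1.49e-08) and by 0.24 ± 0.05 at 12 h, and rose by 0.22 ± 0.05 at 24 h. Hpse, which encodes heparanase, rose by 0.30 ± 0.07 at 12 h and by 0.37 ± 0.07 at 24 h. Over the 8 lists, 126 of 145 genes were tested, of which 7 rose and 12 fell at 12 h, 8 rose and 21 fell at 6 h, and 13 rose and 20 fell at 24 h, with medians of -0.04, -0.07 and -0.02 on the log2 scale.

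Several of the small leucine-rich genes sit in clusters, and neighbours did not always pass in the same comparisons. Dcn and Lum lie on chromosome 10, with 46984 bases between them, followed by Kera and Epyc. Both rose at 24 h, by 0.18 and 0.96 for Dcn and Lum, whereas at 12 h Lum rose and Dcn had a log2 fold change of 0.04. Kera had no count in any library, and Epyc, at 1.25 ± 0.42 CPM in DMSO (SD, n = 3), rose at 24 h by 1.12 ± 0.36 (SE; adjusted p = 0.0460). Prelp lies 2304 bases from Optc and 115839 bases from Fmod on chromosome 1. Prelp fell at 6 h and 12 h, Fmod passed in no comparison, and Optc had at most 0.62 CPM as a group mean. Ecm2, Aspn and Omd precede Ogn on chromosome 13, with group means of at most 2.64, 1.02 and 0.19 CPM. Of the 11 other small leucine-rich genes 7 were tested, of which Nyx rose at 6 h and 12 h (0.88 ± 0.21 and 0.73 ± 0.21) and Epyc at 24 h.

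Of 17 other matrix proteoglycan and link protein genes 11 were tested, of which 1 rose at 12 h, 1 rose and 2 fell at 6 h, and 1 rose at 24 h. Col18a1, a heparan sulfate proteoglycan of basement membranes as Hspg2 is, had a CPM of 132, 130 and 127 in DMSO and 166, 161 and 156 after 12 h. It fell by 0.18 ± 0.05 at 6 h and rose by 0.31 ± 0.05 at 12 h and by 0.22 ± 0.05 at 24 h. Smoc2, a secreted calcium-binding matrix protein, fell by 0.62 ± 0.13 at 6 h, and Srgn, a proteoglycan of secretory granules, rose by 0.54 ± 0.15 at 6 h.

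Sums of marker lists also differed between groups. At 6 h, where Bgn and Prelp were lowest, 5 of the 8 marker sums lay below DMSO without overlap. The endothelial sum lay above DMSO without overlap, and the stellate and macrophage sums overlapped it. The stellate sum was 2944 ± 54.0 against 2864 ± 34.6 CPM (SD, n = 3). Of the 16 stellate genes 1 rose and 2 fell, with a median of -0.12 on the log2 scale, so sum and median differed in direction. Portal fibroblast markers summed to 489 ± 23.7 CPM against 613 ± 44.3 CPM in DMSO (SD, n = 3), and mesothelial markers to 666 ± 42.7 against 727 ± 14.97 CPM. Hepatocyte markers summed to 1141 ± 88.4 against 1307 ± 36.3 CPM, cholangiocyte markers to 646 ± 18.1 against 686 ± 27.4 CPM, and lymphocyte markers to 2.39 ± 0.44 against 4.02 ± 0.60 CPM. Some gaps were very small. The highest 6 h library stood at 714.5 against 714.8 CPM in the lowest DMSO library for mesothelial markers. For cholangiocyte markers these were 664.0 and 666.0 CPM. Of the tested genes of these 5 lists, 1 of 11 portal fibroblast genes fell (Fbln2) and 1 rose (Cd34), both named after their values were seen. In the others, 1 of 10 mesothelial, none of 14 hepatocyte, 2 of 8 cholangiocyte and none of 4 lymphocyte genes fell. Of all genes 5.24% fell and 4.48% rose at 6 h.

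At 12 h, where Lum and Vcan rose, the stellate sum was 3073 ± 72.9 against 2864 ± 34.6 CPM and the cholangiocyte sum 819 ± 54.996 against 686 ± 27.4 CPM (SD, n = 3), both without overlap. Of the 16 stellate genes 3 rose and 2 fell, where 2.18% of all genes rose and 3.48% fell. Of the 8 cholangiocyte genes only Spp1 rose, by 0.54 ± 0.06 on the log2 scale (adjusted p = 6.24e-06). The portal fibroblast and mesothelial sums overlapped DMSO at 582 ± 31.0 and 740 ± 44.2 CPM. At 24 h, where Lum, Vcan and Dcn were highest, the stellate sum was 3263 ± 72.5 CPM and the cholangiocyte sum 1095 ± 22.2 CPM, again above DMSO without overlap. Of the 16 stellate genes 8 rose and 2 fell, where 5.94% of all genes rose and 7.41% fell. In the cholangiocyte list Spp1 rose by 1.46 ± 0.06 (adjusted p = 4.15e-11) and Cldn4 fell by 0.44 ± 0.06 (adjusted p = 6.72e-05), both named after their values were seen. The portal fibroblast sum was then 560 ± 22.2 CPM (2 of 11 genes fell) and the mesothelial sum 650 ± 63.6 CPM (1 of 10 rose and 1 fell). No marker of any of these lists was at 0 in every library. The part of these shifts in the values of the proteoglycan genes was not tested.

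The genes with the most similar patterns were found for the 6 called genes as those with the smallest root mean square difference in log2 CPM, each centred on its mean, over the 12 libraries and among 10716 genes. For Bgn these were Tln2 (0.04), Dnmt1 (0.05) and Ern1 (0.05), beside a spread of Bgn itself of 0.18. For Lum they were Fam84a (0.13), Deptor (0.18) and Itga2 (0.18), beside its own 0.44. For Prelp they included Rcsd1 (0.08) and Maml2 (0.10), beside 0.23. For Vcan they included Irf1 (0.05) and Rbmx (0.06), beside 0.16. For Hspg2 they were Cad (0.03), Lypla2 (0.04) and Ski (0.04), beside 0.11, and for Dcn Fubp1 (0.03), Tmed2 (0.04) and Hmgb1 (0.04), beside 0.09. Genes of small spread lie close to many others, so the distances of Dcn and Hspg2 say less than that of Lum.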

How the data were processed

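Expected counts per gene, made by the authors and deposited as whole numbers, were used for 12 libraries. Per the submitters' processing notes Salmon, fastp, FastQC and DESeq2 were used with GRCm38; role, order, versions, annotation and strand handling are not given in the sources used here. Salmon shares reads between similar transcripts. Rounding changed no value. Symbols came from a table of gene names, positions and exon lengths from GENCODE vM21 (GRCm38), and upstream sequences from RefSeq.

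The test was edgeR's quasi-likelihood F test (edgeR 4.0.16, R 4.3.3), two-sided, after filterByExpr and TMM scaling; glmQLFit took the 12 libraries together with group alone in the design, and 16036 genes were kept. Each of the 6 comparisons had its own Benjamini-Hochberg adjustment, and a gene with an adjusted p under 0.05 is called. The SE comes from the moderated F statistic, and 95% intervals from its 8 residual and 8.80 prior degrees of freedom. CPM was scaled with TMM factors. Alternatives were RLE factors, no low-count filter, DESeq2 1.42.0, the 6 libraries compared fitted alone, the replicate number as a block, and each library left out. The steps were tested on simulated data.

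The 10 genes and the lists were chosen with earlier results of these data known. Named were the 10 genes, up to 5 genes per list with the smallest adjusted p in any comparison with DMSO and at least 1 CPM, 8 hyaluronan genes whatever their p, and the 3 nearest patterns per called gene among genes of at least 5 CPM. Some of the nearest patterns are not reported here.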

Additional observations from a re-analysis of the deposited data

Results flagged for a closer look

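Levels of Bgn, Lum, Prelp and Vcan differed between riociguat groups in at least 1 of the 3 tests between these groups. DMSO was sampled for 12 h only, so the response to riociguat at each time was not compared. Among all genes 6.09% passed between 12 h and 6 h, 3.08% between 24 h and 12 h and 15.3% between 24 h and 6 h. From 6 h to 12 h Bgn differed by a log2 fold change of 0.35, Lum by 0.49 and Vcan by 0.25. From 12 h to 24 h Lum differed by 0.60. From 6 h to 24 h Bgn differed by 0.47, Lum by 1.08, Prelp by 0.39 and Vcan by 0.36 (edgeR's quasi-likelihood test, adjusted p between 4.53e-07 and 0.0125 over these 8 differences, each positive in 3 of 3 libraries against all 3 of the earlier time). Against DMSO the fitted values of Bgn, Lum and Vcan were below 0 at 6 h and above 0 at 24 h, but none of these genes passed at both times. At 6 h Lum (-0.12, adjusted p = 0.537) and Vcan (-0.03, adjusted p = 0.825) did not pass. Both changed sign there when a library was left out. At 24 h Bgn did not pass (adjusted p = 0.0569). The time at which the compound was added differed between these groups as well, and exposure and time of addition cannot be told apart.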

How the results depend on the processing

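The number of genes called moved with single libraries. When each library was left out in turn, 510 to 1262 genes passed for 12 h against DMSO (907 with all), 955 to 1852 for 6 h (1559), 1395 to 2566 for 24 h (2141), 596 to 836 for 12 h against 6 h (976), 318 to 432 for 24 h against 12 h (494) and 1772 to 2117 for 24 h against 6 h (2451). Of the 10 genes 1 to 4, 2 to 3, 3 to 4, 2 to 3, 1 to 2 and 4 to 5 passed in the same order of comparisons. The lowest counts against DMSO came without riociguat 12 h replicate 2 (510), DMSO replicate 2 (955) and DMSO replicate 2 (1395), and the highest without DMSO replicate 1. Counts also moved by over 1.5 times without DMSO replicate 2 (564) or 3 (567) at 12 h, without DMSO replicate 3 (992) or riociguat 6 h replicate 2 (1010) at 6 h, without riociguat 6 h replicate 3 (600) or riociguat 12 h replicate 2 (596) between 12 h and 6 h, and without riociguat 12 h replicate 1 (318) or 2 (319) between 24 h and 12 h. Of 907 genes called at 12 h, 349 rose and 558 fell, against 689 and 594 without the low-count filter and 633 and 629 without DMSO replicate 1. The fit without the filter tested 31124 genes, and that without DMSO replicate 1 tested 16472, against 16036 in the main fit. These counts are therefore not shares of the same number of genes. For 24 h against 12 h, 838 genes passed without the filter. With DESeq2 3 of the 10 genes passed there, against 1 in the main fit, where 3.08% of all genes passed. The share of all genes with DESeq2 is not given here, so that count is no result about the 10 genes.

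Bgn at 12 h, with a main log2 fold change of -0.00, turned to 0.0038 with RLE factors, 0.013 without the filter, 0.0035 with DESeq2 and 0.000145 with the 6 libraries fitted alone, and ran from -0.021 to 0.043 over omitted libraries. None of these passed. Sign changes on omission of a library were found only among values that did not pass. The ranges were -0.030 to 0.11 for Has2 at 12 h. At 6 h they were -0.20 to 0.020 for Lum, -0.19 to 0.030 for Fmod, -0.094 to 0.012 for Vcan and -0.091 to 0.15 for Has1. At 24 h they were -0.18 to 0.15 for Ogn and -0.043 to 0.093 for Has2. They were -0.097 to 0.016 for Ogn and -0.045 to 0.040 for Hspg2 between 12 h and 6 h. Between 24 h and 12 h they were -0.076 to 0.097 for Fmod, -0.073 to 0.21 for Has1 and -0.061 to 0.048 for Has2, and for Ogn between 24 h and 6 h -0.0051 to 0.33. The cause was not tested.

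With the replicate number as a block, 793, 1348, 1944, 842, 443 and 2208 genes passed in the order above, with 3, 3, 5, 4, 1 and 4 of the 10 genes, and Ogn at 24 h turned to -0.0037. The deviations of same-numbered libraries from their group means correlated at -0.12 to 0.09 over the 2000 genes that deviated most. On that ground the numbers were not taken to pair the libraries, though values over such genes do not exclude a pairing. Of 12 libraries 5 correlated best with their own number. Genes with about 50 to 170 counts a library (Fmod, Has1 and Has2) had standard errors of 0.16 to 0.19, against 0.04 to 0.06 for Bgn, Dcn, Hspg2 and Vcan.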
